A study of Mus musculus with 6 samples.

Results

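The de novo synthesis of purine and pyrimidine nucleotides is described here through 10 enzyme genes among the 57180 genes of the deposited table. They were chosen by symbol: 7 purine genes (Ppat, Gart, Paics, Pfas, Adsl, Atic and Impdh2) and 3 pyrimidine genes (Cad, Umps and Ctps1, which the table lists under its older symbol Ctps). All 10 had a mean of at least 1 TPM (a length-corrected share of the transcripts in a library) over the 6 libraries and were tested. The RNA came from lymphocytes that had infiltrated tumors of Hepa1-6, a hepatoma line of the mouse. All mice received by tail vein the delivery system TREND with plasmids for CasRx, an RNA-cutting CRISPR nuclease. The guide RNA was a mock guide in 3 libraries (Mock sgRNA) or a guide against SLC43A2, an importer of large neutral amino acids including methionine, in the other 3 (SLC43A2 sgRNA). The sources used here give neither the strain, age and sex of the mice nor whether animals were pooled. The series title calls the system tumor-specific and activated by Wnt signaling, whereas the RNA measured here is that of lymphocytes. Nothing in the labels says that libraries of a group came from separate animals, so p-values measure the spread between these libraries.

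Cells build purines stepwise on an activated ribose, PRPP, taking nitrogen from glutamine, glycine and aspartate and single carbons from folate, until the ring of IMP is closed. IMP is then turned into AMP or GMP. The pyrimidine ring is made first, from glutamine and aspartate, and is joined to PRPP afterwards, giving UMP and then CTP. Resting lymphocytes get by largely on salvage of ready-made bases, and stimulated lymphocytes switch on both de novo routes before they divide.

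Promoter sequences of these genes are shown because most of the members were higher together in the same libraries, and the letters let a reader see what their start regions hold. RefSeq windows of 300 bases on GRCm38.p6 (250 before the start site and 50 from it) matched 9 of the 10 members. Pfas had no window. A pair of palindromic motifs, chosen with the sequences in view, was searched in them: the E-box CACGTG, which Myc and Max can bind, and TGACGTCA, the full cyclic AMP response element of the ATF and CREB factors. A palindrome reads the same on both strands, and these motifs do not overlap each other. The E-box was in the windows of 3 of 9 members and of 8.09% of all 27025 genes with a window. TGACGTCA was in 1 of 9 and in 2.03% of all genes. In the lines that follow, letters run 5′ to 3′ on the gene's own strand and capitals mark the motif.
Paics, E-box at -203 to -198, chr5:76951087-76951116, plus strand: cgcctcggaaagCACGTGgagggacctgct
Impdh2, E-box at -110 to -105, chr9:108560314-108560343, plus strand: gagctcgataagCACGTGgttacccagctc
Atic, E-box at -7 to -2, chr1:71557137-71557166, plus strand: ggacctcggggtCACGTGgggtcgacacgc
Umps, TGACGTCA at bases 4 to 11 of the transcript, chr16:33967017-33967046, minus strand: ggacttctgggTGACGTCAcgggccccaag
Of the 3 genes with an E-box, Paics and Impdh2 are among those that rose and Atic is not. The windows of Umps and Ctps1, the members of largest difference, hold no CACGTG. The Paics window lies inside Ppat: the 2 genes stand head to head on chromosome 5, and in GENCODE M21 (GRCm38) their first exons share 272 bases on opposite strands. Positions are counted from the RefSeq start site, which for Impdh2 is 108560436. In GENCODE M21 Impdh2 starts earlier, at 108560286, and its printed stretch lies in an exon there. The printed stretch of Atic also shares bases with an exon of Atic there, which starts at 71557150. That of Paics shares bases with an exon of Ppat. A match is a run of letters and not a measured binding site.

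Most of the de novo genes were higher in the SLC43A2 sgRNA libraries. Of the 10 members, 6 rose and 0 fell past an adjusted p of 0.05 (limma on log2(TPM + 1), adjusted over the 13759 genes tested), against 22.8% of all genes tested that rose and 22.2% that fell (45.1% in either direction). The 6 were Umps, Ctps1, Ppat, Paics, Impdh2 and Adsl. In 8 of 10 members all 3 SLC43A2 sgRNA values lay above all 3 Mock sgRNA values, which was so for 28.7% of the genes tested. All 3 values lay below for 28.3% of them and for 0 members, so the groups did not overlap in 57% of all genes tested. The median log2 difference was 0.84 over the members, 0.03 over all genes tested and 0.16 over the 10463 protein-coding ones, of which 28.1% rose. Summed over the members, the Mock sgRNA libraries held 392, 349 and 458 TPM and the SLC43A2 sgRNA libraries 762, 605 and 711 TPM, in the order of their replicate numbers, which is kept in all lists of 3 values here. The groups were apart in this sum, and replicate 2 was the lowest library of each.

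**Figure D1:**
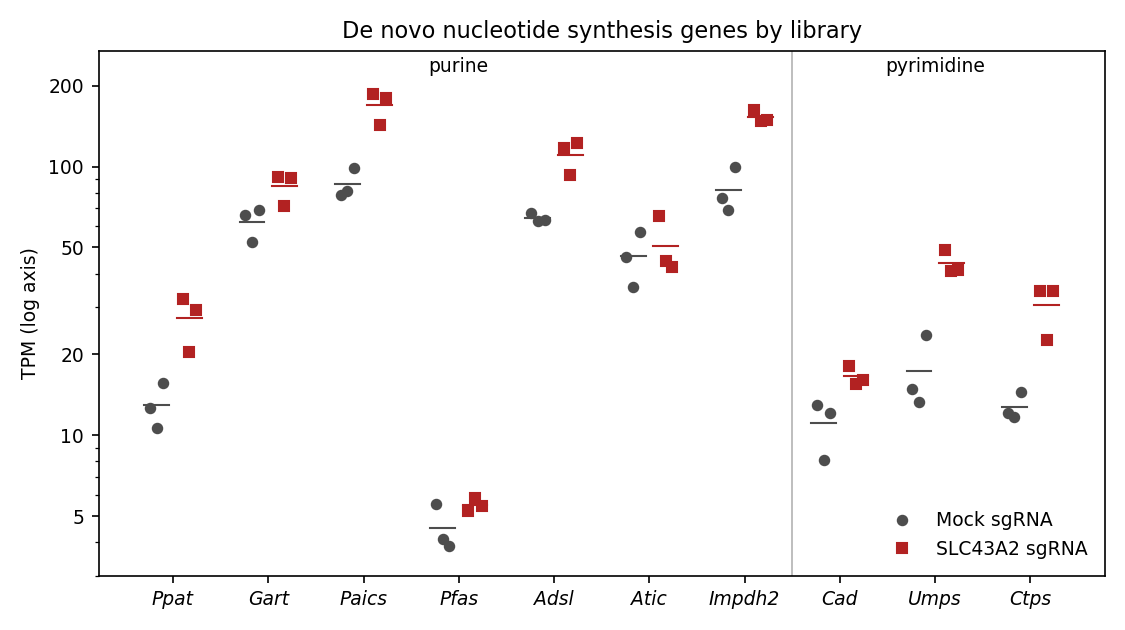
TPM of the 10 members (log axis) in each of the 3 Mock sgRNA libraries (grey circles) and 3 SLC43A2 sgRNA libraries (red squares), with a line at each group mean. The groups are apart for 8 genes, from Paics with 78.2 to 98.5 against 143 to 186 TPM down to Cad with 8.09 to 13 against 15.5 to 18.1 TPM; Pfas and Atic overlap.

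Other features of the libraries differed along with these genes. Summed over the lists of markers, B cell transcripts (7 genes, 6 of 6 tested fell) ranged over 287 to 369 TPM in Mock sgRNA and 23.7 to 24.7 TPM in SLC43A2 sgRNA. Plasma cell transcripts (6 genes, 5 of 6 fell) went from 22312 to 23875 down to 777 to 884 TPM, and macrophage and monocyte transcripts (7 of 7 fell) from 561 to 660 down to 59.6 to 66.6 TPM. Neutrophil genes (6 of 6 tested fell) ranged over 445 to 628 and 102 to 124 TPM, and erythroid genes (6 of 6 tested fell) over 955 to 1121 and 40.6 to 51.6 TPM. None of these 5 lists has a marker at 0 in all 6 libraries. Of 7 hepatocyte and hepatoma genes, Alb, Ttr and Serpina1a were listed at 0 in all 6 libraries, and the sum was 21.3 to 37.6 and 5.84 to 8.29 TPM. Trf alone of that list fell (21.8 ± 7.85 and 1.86 ± 0.157 TPM), and Afp and Apoa2 overlapped between the groups. The 9 T cell markers summed to 9014 to 10271 and 8041 to 8667 TPM, with 2 that rose (Cd247 and Cd2) and 2 that fell (Cd3g and Trbc2), so T cell transcripts were abundant in both groups and those of the B lineage were lower in the second. The Y-linked Eif2s3y stood at 51.4 ± 5.39 and 1.03 ± 0.297 TPM (SD, n = 3 each), and the X-linked Xist at 4.31 ± 1.11 and 11.0 ± 1.20 TPM. These differences, those of the sex-linked genes among them, ran along with the guide, and the design cannot tell them apart from it. Their part in the rise of the nucleotide genes was not tested. Of the genes named below, Ctps2, Prps1, Prps2 and G6pdx lie on chromosome X, and no member does. In bulk RNA, a larger share of cells that express a gene and more RNA of it per cell cannot be told apart. With libraries rescaled to their T cell receptor and Cd3 transcripts, the median of all genes tested moved up by 0.21, 66.5% of all calls were rises (50.6% as deposited), and 8 of the 10 members rose. Their median then stood 0.85 above that of all genes, and 0.81 above it as deposited. Rescaling moves all genes of a library by the same factor, so this gap could hardly change. It therefore says nothing about the part of cell content. The target Slc43a2 itself stood at 5.22 ± 1.30 and 3.35 ± 0.885 TPM (SD, n = 3 each), a log2 difference of -0.52 that did not pass (limma adjusted p = 0.113).

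By level, the members spanned more than an order of magnitude. In Mock sgRNA the order of the mean TPM, which is per length, was Paics, Impdh2, Adsl, Gart, Atic, Umps, Ppat, Ctps1, Cad and Pfas, from 85.8 down to 4.51 TPM. The ranges of neighbours in that order overlapped except for Impdh2 and Adsl, Atic and Umps, and Cad and Pfas. In SLC43A2 sgRNA the order ran from 170 to 5.49 TPM and differed only in that Ctps1 stood above Ppat, whose ranges overlapped. Paics and Impdh2 overlapped there as well, and so did Atic and Umps, which had been apart in Mock sgRNA.

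The purine route opens with Ppat, the amidotransferase that commits PRPP to the purine ring and is inhibited by its end products. Ppat (ENSMUSG00000029246; GRCm38 chromosome 5, 76913249 to 76951578, minus strand) stood at 12.6, 10.6 and 15.7 TPM in Mock sgRNA and at 32.1, 20.5 and 29.3 TPM in SLC43A2 sgRNA. The groups did not overlap, and the lowest SLC43A2 sgRNA library was still above the highest mock one. The log2 difference was 1.01 (SE 0.22, limma adjusted p = 0.00962), and the mean TPM was 2.11-fold higher.

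Gart encodes a trifunctional enzyme of the early steps, one of which takes a formyl group from folate. Gart (ENSMUSG00000022962; chromosome 16, 91621186 to 91646952, minus strand) stood at 66.1, 52.5 and 68.9 TPM in Mock sgRNA and 91.7, 71.3 and 91.1 TPM in SLC43A2 sgRNA. The groups did not overlap, though their nearest values were close, and limma gave a log2 difference of 0.43 (SE 0.16) short of the threshold (adjusted p = 0.0685). In GENCODE M21, 19.7% of its exonic bases are shared with the antisense gene Gm15964, which averaged 0.443 and 0.703 TPM. Gart passed without SLC43A2 sgRNA replicate 2 (adjusted p = 0.0364), and over all alternatives its adjusted p ran from 0.0136 to 0.19.

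Pfas, which adds a nitrogen from glutamine, was the lowest member. Pfas (ENSMUSG00000020899; chromosome 11, 68985697 to 69008460, minus strand) stood at 5.53, 4.12 and 3.87 TPM and at 5.22, 5.83 and 5.43 TPM. Mock sgRNA replicate 1 lay among the SLC43A2 sgRNA values, and limma gave a log2 difference of 0.25 (SE 0.17), short of the threshold (adjusted p = 0.275).

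Paics joins carbon dioxide and then aspartate to the growing ring, and had the highest mean of the members in both groups, with a range that overlapped that of Impdh2. Paics (ENSMUSG00000029247; chromosome 5, 76951307 to 76967509, plus strand) stood at 78.2, 80.8 and 98.5 TPM in Mock sgRNA and at 186, 143 and 180 TPM in SLC43A2 sgRNA. The groups were well apart, with a log2 difference of 0.97 (SE 0.15, limma adjusted p = 0.00314). The shared stretch makes up 8.67% of the exonic bases of Paics and 6.15% of those of Ppat, and its reads cannot be assigned without strand information. Within a library, Ppat had 0.150 ± 0.0168 TPM for each TPM of Paics in Mock sgRNA and 0.159 ± 0.0149 in SLC43A2 sgRNA (SD, n = 3 each; exact two-sided permutation p = 0.5). The 2 sets of ratios overlapped, in a design that cannot give a p under 0.1.

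Adsl works at 2 points, near the end of IMP synthesis and in the branch to AMP. Adsl (ENSMUSG00000022407; chromosome 15, 80948490 to 80970946, plus strand) stood at 67.4, 62.5 and 63.3 TPM in Mock sgRNA and at 117, 92.8 and 122 TPM in SLC43A2 sgRNA. The mock values were tight (64.4 ± 2.60 TPM) and lay below all of the others, and Adsl rose by 0.76 (SE 0.14, limma adjusted p = 0.00548).

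Atic, which adds the last folate carbon and closes the ring, did not pass. Atic (ENSMUSG00000026192; chromosome 1, 71557150 to 71579631, plus strand) stood at 46.1, 35.8 and 57.3 TPM in Mock sgRNA and at 65.3, 44.6 and 42.4 TPM in SLC43A2 sgRNA. The groups overlapped, with 1 SLC43A2 sgRNA library above and the others inside the range of the mock libraries. Its log2 difference was 0.13 (SE 0.23, 95% interval -0.42 to 0.68, limma adjusted p = 0.674), and it turned to -0.040 under quantile normalization. Set against Paics in the same library, Atic stood at 0.589, 0.442 and 0.581 TPM per TPM of Paics in Mock sgRNA and at 0.351, 0.312 and 0.236 in SLC43A2 sgRNA. These ratios did not overlap, and the exact two-sided permutation p of 0.1 is the smallest that 3 against 3 can give (0.15 adjusted over the 3 ratios tried, which were picked after the values were seen).

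At the branch to GMP stands IMP dehydrogenase, whose main form in dividing lymphocytes is Impdh2, the target of mycophenolic acid. Impdh2 (ENSMUSG00000062867; chromosome 9, 108560286 to 108565584, plus strand) stood at 76.5, 69.2 and 100.03 TPM in Mock sgRNA and at 163, 148 and 149 TPM in SLC43A2 sgRNA. The groups were apart, and it rose by 0.91 (SE 0.16, limma adjusted p = 0.00451). The table also lists a processed pseudogene, Impdh2-ps, at no more than 0.2 TPM in any library.

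The pyrimidine route opens with Cad, a single large protein that carries carbamoyl phosphate synthetase, aspartate transcarbamylase and dihydroorotase. Cad (ENSMUSG00000013629; chromosome 5, 31054780 to 31078479, plus strand) stood at 13, 8.09 and 12.1 TPM in Mock sgRNA and at 18.1, 15.5 and 16.1 TPM in SLC43A2 sgRNA. The groups did not overlap, but the log2 difference of 0.56 (SE 0.20) missed the threshold narrowly (limma adjusted p = 0.0513). It passed with a pseudocount of 0.1 (adjusted p = 0.0498) and with the scaling to T cell transcripts (adjusted p = 0.0127), and its adjusted p ran from 0.0127 to 0.156 over all alternatives tried.

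Umps turns orotate into UMP and showed the largest difference of the members. Umps (ENSMUSG00000022814; chromosome 16, 33954782 to 33967038, minus strand) stood at 14.9, 13.3 and 23.7 TPM in Mock sgRNA and at 49.1, 40.9 and 41.1 TPM in SLC43A2 sgRNA. The lowest SLC43A2 sgRNA library stood clear of the highest mock one, Mock sgRNA replicate 3. Umps rose by 1.33 (SE 0.22, limma adjusted p = 0.00402), 2.53-fold in mean TPM, and 96.0% of the protein-coding genes tested had a smaller log2 difference. Per TPM of Cad, it stood at 1.14, 1.64 and 1.95 in Mock sgRNA and 2.72, 2.63 and 2.55 in SLC43A2 sgRNA, with no overlap (exact two-sided permutation p = 0.1, adjusted 0.15). In GENCODE M21, 6.11% of its exonic bases are shared with the opposite-strand Gm15829, which averaged 0.3 and 0.67 TPM.

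Ctps1 makes CTP from UTP, and people who lack it have lymphocytes that fail to expand. Ctps1 (ENSMUSG00000028633; chromosome 4, 120539868 to 120570276, minus strand) stood at 12.2, 11.7 and 14.5 TPM in Mock sgRNA and at 34.5, 22.6 and 34.4 TPM in SLC43A2 sgRNA. The groups were apart, with SLC43A2 sgRNA replicate 2 the lowest of its group, as it was for 8 of the 10 members. Ctps1 rose by 1.17 (SE 0.20, limma adjusted p = 0.00412).

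**Figure D2:**
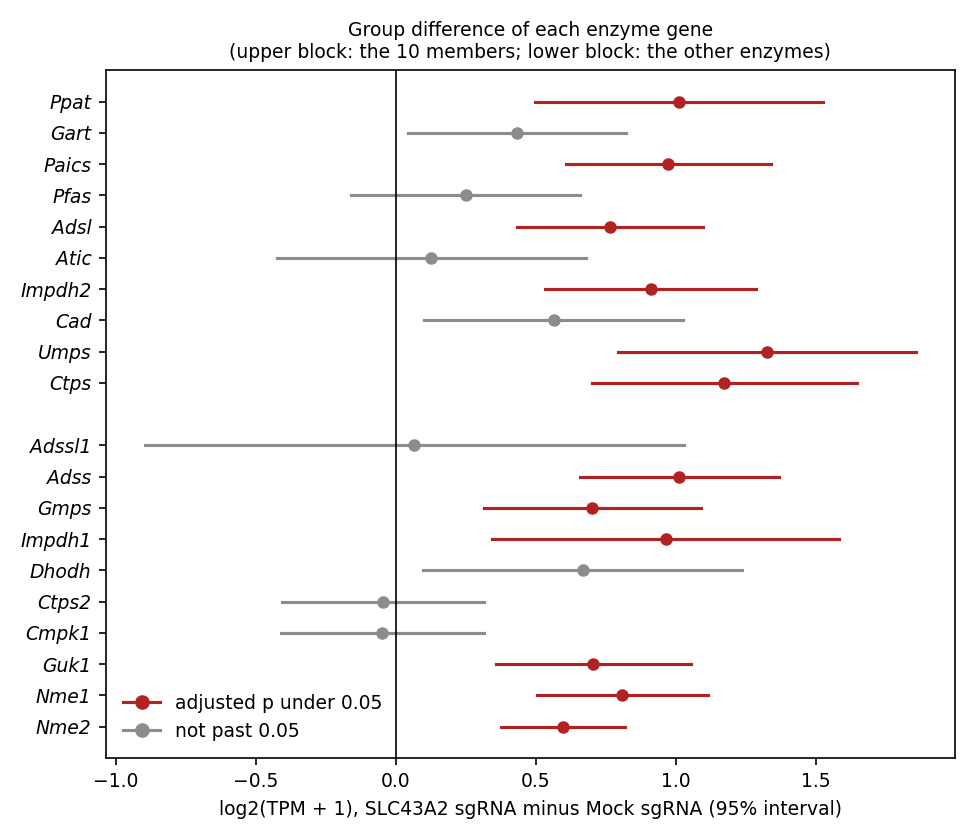
Log2 difference in TPM + 1 between SLC43A2 sgRNA and Mock sgRNA for the 10 members (upper block) and 10 other enzymes of the route (lower block), as points with unadjusted 95% intervals from limma; red marks an adjusted p under 0.05 and grey the rest. Umps (1.33) and Ctps1 (labelled Ctps, 1.17) lie farthest to the right, and Atic, Pfas, Adssl1, Ctps2 and Cmpk1 have intervals that include 0.

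Of the 11 other enzymes that complete the routes to nucleotides, 7 rose and 0 fell (median log2 difference 0.70). This count and those of the lists that follow stand against 22.8% of all genes tested that rose, 22.2% that fell and a median of 0.03. Adss, the adenylosuccinate synthetase of most tissues, rose by 1.01 and the GMP synthetase Gmps by 0.70. Impdh1, the second IMP dehydrogenase, stood at 45.2, 25.8 and 30.4 TPM in Mock sgRNA and 73.4, 48.4 and 77.6 TPM in SLC43A2 sgRNA and rose by 0.96 (SE 0.26, limma adjusted p = 0.0226). Of the kinases that phosphorylate nucleotides, Nme1 rose by 0.81, Guk1 by 0.70 and Nme2 by 0.60. Cmpk1, the UMP and CMP kinase, did not pass (log2 difference -0.05, limma adjusted p = 0.815; 0.20 when scaled to T cell transcripts). Nme1 and Nme2 share exonic bases with the readthrough gene Gm20390 (12.5% and 48.9% of theirs), so their levels are less certain. Dhodh, the mitochondrial enzyme between Cad and Umps, stood at 18.5 ± 5.75 and 28.9 ± 1.87 TPM (SD, n = 3 each) and just missed the threshold (limma adjusted p = 0.0583), although its groups did not overlap. Leaving out 1 library, its log2 difference ran from 0.39 without Mock sgRNA replicate 2 to 0.83 without Mock sgRNA replicate 3. It passed in the latter fit alone among these (adjusted p = 0.0452), and over all alternatives its adjusted p ran from 0.0145 to 0.164. Adssl1, the muscle form of adenylosuccinate synthetase, was low at 0.5 to 3.41 TPM. The calls of Impdh1 and Gmps were lost on leaving out any one of several libraries, although the log2 differences stayed at 0.80 to 1.19 and 0.61 to 0.81 over all 6 such fits. Impdh1 had an adjusted p of 0.0911 without SLC43A2 sgRNA replicate 3, 0.0821 without replicate 1, 0.0815 without Mock sgRNA replicate 2 and 0.07 without Mock sgRNA replicate 3, and of 0.0538 with no filter on low genes. For Gmps it was 0.058, 0.0549 and 0.0508 without SLC43A2 sgRNA replicate 3, SLC43A2 sgRNA replicate 1 and Mock sgRNA replicate 1.

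CTP synthase comes in a pair of isozymes that did not move alike. Ctps2 stood at 75.8, 56.9 and 72.6 TPM in Mock sgRNA and at 72.7, 61.8 and 63.3 TPM in SLC43A2 sgRNA, and did not pass (log2 difference -0.04, 95% interval -0.41 to 0.32, limma adjusted p = 0.826; 0.21 when scaled to T cell transcripts). Ctps1 made up 13.8%, 17.1% and 16.6% of the pair's TPM in Mock sgRNA and 32.2%, 26.8% and 35.3% in SLC43A2 sgRNA. The share did not overlap between the groups (exact two-sided permutation p = 0.1, the smallest possible, and 0.3 adjusted over 3 isozyme pairs). The shares of the IMP dehydrogenases overlapped, with Impdh2 at 70.8% ± 7.15 and 70.0% ± 4.87 of the pair (SD, n = 3 each; exact permutation p = 0.9). For Adss against Adssl1 the share was 95.02% ± 3.33 and 97.6% ± 0.460 (exact permutation p = 0.4). A share within a library does not depend on how libraries are scaled.

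**Figure D3:**
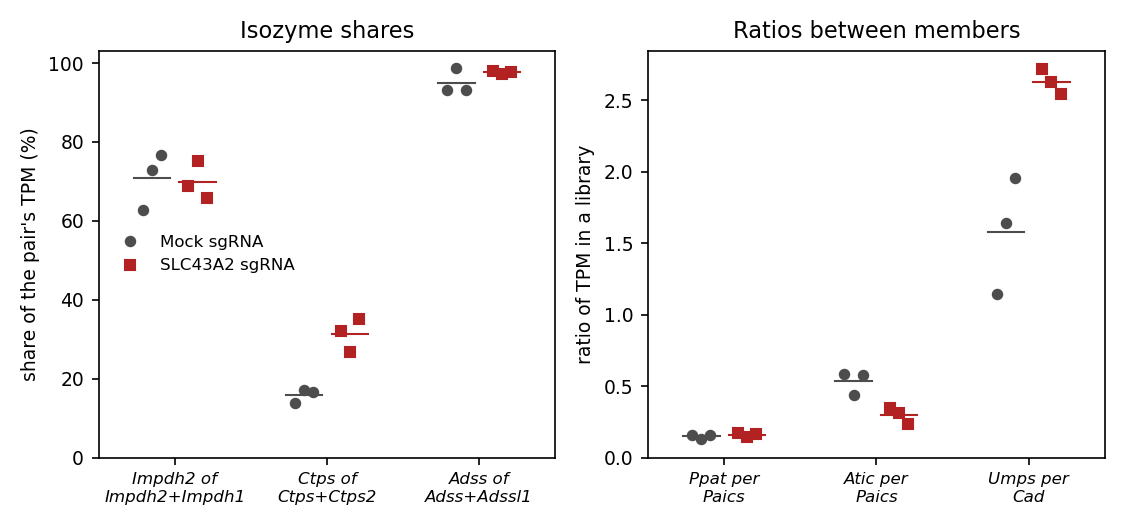
Left, the share of an isozyme in its pair's TPM, in percent; right, the TPM of one member per TPM of another in the same library. Points are libraries (grey circles Mock sgRNA, red squares SLC43A2 sgRNA, 3 each) and lines group means. Ctps1 (labelled Ctps) goes from 13.8 to 17.1% up to 26.8 to 35.3%, Atic per Paics is lower and Umps per Cad higher with no overlap, and the other sets overlap.

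PRPP, which both routes consume, is made from ribose phosphate of the pentose phosphate pathway. In this list of 11 genes, 7 rose and 1 fell (median 0.62, or 0.36 under quantile normalization). Prps1, a PRPP synthetase, stood at 54.8, 49.8 and 71.6 TPM in Mock sgRNA and at 156, 115 and 147 TPM in SLC43A2 sgRNA. It rose by 1.23 (SE 0.19, limma adjusted p = 0.00251), and its groups were far apart. Its associated protein Prpsap1 rose by 1.00. The oxidative branch rose at G6pdx (1.06), Pgd (0.78) and Pgls (0.49), and the sugar-rearranging enzymes at Rpe (0.97) and Tkt (0.62). Of their exonic bases, Pgls shares 20.6% with Fam129c, Rpe 17.9% with Kansl1l and G6pdx 13.6% with Ikbkg. Rpia, the isomerase that yields ribose 5-phosphate, fell from 5.16 ± 1.39 to 1.46 ± 0.396 TPM (log2 difference -1.31, limma adjusted p = 0.00561). Prps2, Prpsap2 and Taldo1 did not pass, at log2 differences of 0.30, 0.35 and 0.14. Prps2 did without SLC43A2 sgRNA replicate 2 (adjusted p = 0.0366), and Taldo1 turned to -0.086 under quantile normalization. Under quantile normalization the calls of Pgls (log2 difference 0.23, adjusted p = 0.0808) and Tkt (0.36, adjusted p = 0.126) were lost. The calls of Tkt and Pgd were lost in leave-one-out fits, to adjusted p of at most 0.0749 and 0.0897 (both without SLC43A2 sgRNA replicate 3). Tkt was also lost without SLC43A2 sgRNA replicate 1 (0.0673) or Mock sgRNA replicate 2 (0.0601), and Pgd without SLC43A2 sgRNA replicate 1 (0.0818) or Mock sgRNA replicate 2 (0.0734) or 3 (0.058).

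The folate enzymes that supply carbons to Gart and Atic had the highest median of the lists, 1.33, with 5 of 7 tested members that rose and 0 that fell. With no filter on low genes this median was 0.69, below the 0.84 of the 10 members, so its rank depends on the filter. Mthfd2, the mitochondrial dehydrogenase, went from 41.1 ± 8.47 to 116 ± 14.9 TPM (SD, n = 3 each) and rose by 1.48 (SE 0.18, limma adjusted p = 0.00122). Shmt2, which takes the carbon from serine, rose by 1.40. Aldh1l1 and Aldh1l2 stood under 1 TPM and were not tested.

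Among 11 genes of glutamine and aspartate supply, 5 rose and 1 fell (median 0.51, or 0.31 without Mock sgRNA replicate 2). Asns, which consumes both amino acids to make asparagine and is a classic ATF4 target, rose by 2.37, from 11.0 ± 1.89 to 60.8 ± 5.32 TPM (limma adjusted p = 9.43e-05). Got1, the cytosolic transaminase that can yield aspartate, rose by 1.97, from 29.5 ± 7.43 to 117 ± 18.6 TPM. Glul, glutamine synthetase, fell by 0.78 on the log2 scale. Its call was lost without Mock sgRNA replicate 1 (adjusted p = 0.0563) or SLC43A2 sgRNA replicate 3 (adjusted p = 0.0593; lowest over its alternatives 0.00387).

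Salvage genes, which recycle bases and nucleosides, were higher as well, with 11 of 17 tested that rose and 2 that fell (median 0.79). The uridine phosphorylase gene Upp1 stood at 0, 0.57 and 0.42 TPM in Mock sgRNA and at 4.08, 2.03 and 2.67 TPM in SLC43A2 sgRNA, and rose by 1.55. Uck2, a uridine and cytidine kinase, rose by 1.31, from 70.02 ± 23.9 to 169 ± 8.47 TPM. Ampd3, an AMP deaminase, fell by 1.17 and Dguok, the mitochondrial deoxyguanosine kinase, by 0.62 on the log2 scale. The number that rose was 6 without SLC43A2 sgRNA replicate 1 and 6 without replicate 3, where 14.1% and 13.5% of all genes tested rose.

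Deoxynucleotide synthesis, which feeds DNA replication, was mixed, with 4 of 8 that rose and 1 that fell (median 0.44). Rrm2, the ribonucleotide reductase subunit made in S phase, stood at 13.8, 12.9 and 19.1 TPM in Mock sgRNA and at 38.2, 32.8 and 41.3 TPM in SLC43A2 sgRNA. It rose by 1.25 (SE 0.18, limma adjusted p = 0.00226), and the deoxycytidylate deaminase gene Dctd rose by 1.09. Tyms, which makes thymidylate, rose by 0.60 and Dut, which removes dUTP, by 0.42. Rrm1, the large reductase subunit, did not pass and overlapped between groups (log2 difference 0.22, limma adjusted p = 0.245). Dtymk, the thymidylate kinase, did not pass, at 0.17, and turned to -0.055 under quantile normalization. Rrm2b, the reductase subunit that is induced by p53, fell by 0.53 on the log2 scale. The calls of Tyms and Rrm2b were each lost in 6 of 16 alternatives (adjusted p up to 0.119 and 0.159), 4 of which left out a library. Tyms was lost without any one of the SLC43A2 sgRNA replicates (0.0529 to 0.074) or Mock sgRNA replicate 1 (0.0565). Rrm2b was lost without SLC43A2 sgRNA replicate 1 (0.0843) or 3 (0.113) or Mock sgRNA replicate 1 (0.0907) or 2 (0.0705). Dut was lost under quantile normalization (log2 difference 0.19, adjusted p = 0.127) and without SLC43A2 sgRNA replicate 1 (0.052), and without that library 2 genes of the list rose.

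In nucleotide breakdown, 6 of 10 tested genes rose and 1 fell (median 0.48, or 0.25 with no filter and 0.27 under quantile normalization). Samhd1, which destroys deoxynucleotides, rose by 1.24, from 172 ± 9.18 to 408 ± 24.6 TPM (limma adjusted p = 0.000267). Nt5c2, a cytosolic nucleotidase, rose by 1.11. Nt5e, the ectoenzyme CD73 that makes adenosine, fell by 0.88 on the log2 scale. Without SLC43A2 sgRNA replicate 3 the list had 3 that rose. Uox and Dpys were listed at 0 in all 6 libraries.

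**Figure D4:**
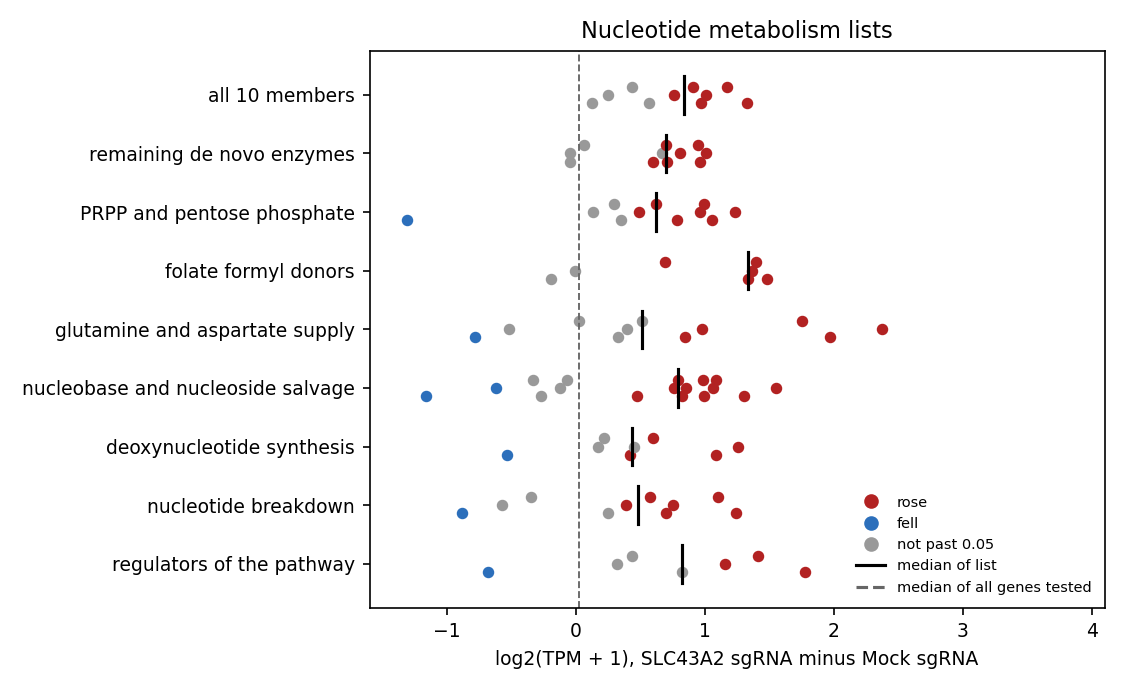
Log2 difference in TPM + 1, SLC43A2 sgRNA minus Mock sgRNA, for each tested gene of the 10 members and of 8 related lists; points are genes (red rose, blue fell, grey not past an adjusted p of 0.05), black bars list medians and the dashed line the median of all genes tested (0.03). List medians run from 0.44 for deoxynucleotide synthesis to 1.33 for the folate donors.

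Of the 7 factors known to act on the pathway, 3 rose and 1 fell (median 0.83). Myc, which binds the genes of both routes, stood at 90.4, 65.4 and 85.8 TPM in Mock sgRNA and at 239, 190 and 215 TPM in SLC43A2 sgRNA. It rose by 1.41 (SE 0.16, limma adjusted p = 0.000963) with a wide gap between the groups. Atf4, which mTORC1 uses to raise folate carbon supply, rose by 1.16, from 150.2 ± 27.8 to 337 ± 62.2 TPM. Hif1a, the hypoxia factor, rose by 1.78. Max, the partner of Myc, fell by 0.68 on the log2 scale, but that call was lost without any one of 5 libraries (adjusted p 0.0628 to 0.074; Mock sgRNA replicate 3 was the exception) and with the scaling to T cell transcripts (adjusted p = 0.14). Mtor and Rps6kb1, the kinase that acts on Cad, did not pass (limma adjusted p = 0.165 and 0.0507; Rps6kb1 0.0396 without Mock sgRNA replicate 3), and neither did E2f1 (log2 difference 0.83, adjusted p = 0.0667).

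By the shape of their profile over the 6 libraries, 3 genes lay nearest to the mean of the members, by root mean square distance of centred log2(TPM + 1) among 10453 other protein-coding genes tested. They were Ahcy (0.031), the methionine cycle enzyme that clears S-adenosylhomocysteine, the zinc finger gene Zfp207 (0.033) and the TNF family ligand gene Tnfsf8 (0.033). Ahcy stood at 44.9, 35.8 and 49.1 TPM in Mock sgRNA and at 79.99, 62.9 and 75.5 TPM in SLC43A2 sgRNA. All 3 genes were lowest in replicate 2 of both groups, as the sum of the members was. That likeness follows from how they were chosen.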

How the data were processed

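The authors deposited gene-level TPM for 57180 genes in 1 table, rounded to 2 decimals, for 6 libraries. The submitters' processing notes name Bowtie 0.12.2 and mm8 without saying what each served for. How genes were counted, and with which annotation, is not given in the sources used. Per the labels' protocols, libraries were made with the Illumina TruSeq RNA kit from total RNA, and that text speaks of retinas, so it may not describe these samples. Of the gene identifiers, 51884 (90.7%) are in GENCODE M21, as are all 10 members, and positions come from there. Depth is unknown, since TPM does not carry numbers of reads, and no counting interval can be given.

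For the 13759 genes with a mean of at least 1 TPM, limma 3.58.1 (R 4.3.3; moderated by eBayes with its trend option, two-sided) was applied to log2(TPM + 1), with Benjamini-Hochberg adjustment over all of them and a threshold of 0.05. Fold changes on this scale understate those of low genes. Shares and ratios were tested by exact permutation over libraries. The fit was also run on simulated data with far fewer changed genes than were called here. That run does not vouch for these calls. Alternatives changed the pseudocount, filter, scaling and trend, added a replicate block or left out 1 library. The members, lists and motifs were chosen with earlier results of these data known. Named genes were the members, all genes of 4 lists (except 2 that are counted but not reported here), and up to 4 of each other list (the largest rises and falls past the threshold). Over all genes tested, same-numbered libraries did not deviate together (correlations 0.00106, 0.0606 and -0.0313). The numbers are also not known to mark a batch, so no block was used. Among the members, though, SLC43A2 sgRNA replicate 2 was the lowest of its group for 8 of 10 genes (not Pfas or Atic). Mock sgRNA replicate 2 was the lowest of its group for 8 of 10 as well, but not the same 8 (not Paics or Pfas).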

Additional observations from a re-analysis of the deposited data

How the results depend on the processing

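The 6 members that rose passed in each of 16 alternatives, and 6 to 8 of the 10 members passed in any one of them, with 0 that fell; Cad passed in 6, Gart in 4, Pfas in 1 and Atic in 0. The members' median stood 0.52 to 0.88 above that of all genes tested, the lowest under quantile normalization, which moved the median of all genes by 0.11. Scaled to T cell receptor and Cd3 transcripts, the members' median was 1.09, deoxynucleotide synthesis had 7 that rose and 0 that fell, and the regulators 6 and 0. Depth is unknown, which limits what can be said of low genes such as Pfas.

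With a mean of at least 5 TPM, 1882 of all genes fell, as did 0 of the PRPP list and 1 of salvage; with no filter 2 of the breakdown list fell. In glutamine and aspartate supply, 2 fell under median-of-ratios scaling, quantile normalization and with genes of antigen receptors, mitochondria and hemoglobin left out. Regulators that rose numbered 5 under median-of-ratios scaling and 6 under quantile normalization, which left 0 falls in deoxynucleotide synthesis. With the replicate number as a block, 8 members rose (Cad and Gart with adjusted p of 0.036 and 0.028), 5 regulators rose, and 3319 of all genes rose; the numbers are not known to pair the libraries.

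Leaving out 1 library in turn, 1854 to 3183 of all genes rose and 2247 to 2868 fell, 6 to 7 members rose, and the members' median was 0.77 to 0.91. The ranges of rises were 6 to 11 in salvage, 2 to 5 in deoxynucleotide synthesis and 3 to 6 in breakdown. Those of falls were 0 to 2 in glutamine and aspartate supply, 0 to 1 in deoxynucleotide synthesis and among regulators, and 1 to 2 in breakdown. The share of Impdh2 in its pair differed by -0.82 points and by -4.79 to 2.15 points in these fits, turning positive in 3.

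Differences that did not pass changed sign in some alternatives. Under quantile normalization Atic turned to -0.040, Taldo1 to -0.086 and Dtymk to -0.055. With T cell scaling Ctps2 turned to 0.21 and Cmpk1 to 0.20. Leaving out 1 library in turn, Atic ranged over -0.064 to 0.29, Adssl1 over -0.41 to 0.37, Ctps2 over -0.17 to 0.034 and Cmpk1 over -0.15 to 0.047. The difference in the ratio of Ppat to Paics ranged over -0.000709 to 0.0171. The cause of these changes was not tested.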
